A study of Mus musculus with 21 samples.

Results

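The 10 genes described here are mouse members of the BCL-2 family that oppose or promote cell death: Bcl2, Bcl2l1, Mcl1, Bcl2a1a, Bcl2a1b, Bcl2a1d, Bax, Bcl2l11, Bbc3 and Pmaip1. They were found by symbol among the 23250 genes of the deposited table of estimated counts, through Ensembl IDs without their version, and all 10 passed the filter on low counts. The cells were macrophages grown from bone marrow of C57BL/6J background over 7 days, with GM-CSF supplied as 2.5% of a culture supernatant. The series describes the cells of all groups as deficient in the mannose receptor (MR, gene Mrc1). One group was left untreated at 0 h. FcMR, which joins the Fc region of human IgG1 to the part of MR that lies outside the cell, was given to 3 groups, 1 each for 4, 12 and 24 h. The remaining 3 groups had a control protein labelled isotype for the same times. Each of the 7 groups has 3 libraries, 21 in all. The labels do not say whether replicate libraries came from separate mice or cultures, so p-values measure only the spread between these libraries, which may be technical.

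Proteins of the BCL-2 family meet at the outer membrane of mitochondria. The pro-survival members, which include BCL-2, BCL-XL (gene Bcl2l1), MCL-1 and the A1 proteins (the Bcl2a1 genes), hold back effectors such as BAX that open this membrane and release cytochrome c, which starts caspase activation. The BH3-only members BIM (Bcl2l11), PUMA (Bbc3) and NOXA (Pmaip1) bind pro-survival members and block them, NOXA with a preference for MCL-1 and A1. In macrophages and other myeloid cells A1 is known as a gene induced by NF-kB and by GM-CSF. What follows is messenger RNA in bulk samples, in which fewer cells of a type and less RNA per cell cannot be told apart.

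Library totals ran from 5532225 to 66729533 counts, and 3 counts correspond to 0.045 to 0.542 CPM over the libraries, where CPM are counts relative to the library total, scaled with TMM factors. Mrc1 had 0 to 11 counts per library. All 10 listed macrophage and dendritic cell markers were detected in every library, with a summed level of 4108 to 6814 CPM, while the 3 T cell markers summed to at most 0.653 CPM. The 9 neutrophil and granulocyte precursor markers summed to 1420.0 to 1648 CPM in untreated cells and to 203 to 247 CPM at 24 h. Within groups, the libraries differed in their balance of genes rich and poor in GC. This is given below as a GC tilt, the log2 level averaged over the upper 10% of genes by GC content minus the average over the lower 10%, each gene relative to its mean over all libraries. The titles' library numbers of FcMR 12 h replicate 1 and isotype 4 h replicate 3 stand in each other's place, and these 2 libraries had tilts of −0.73 and 0.64, against 0.70 and 0.80 and against −0.83 and −1.59 in the rest of their groups. Without both, 7, 5 and 7 members were called for FcMR at 4, 12 and 24 h and 7, 3 and 6 for isotype against untreated, and single results are given below where the call differs. At 24 h, the mast cell and basophil markers summed to 23.4 to 28.0 CPM with FcMR and 13.4 to 16.8 CPM with isotype, with 42.9 to 45.0 CPM in untreated cells. The stromal markers summed to 2.13 to 3.08 CPM with FcMR and 0.879 to 1.23 CPM with isotype at 12 h, and to 3.70 to 4.81 CPM and 0.214 to 1.18 CPM at 24 h, with Col1a2 at 3 counts or fewer in every library. The part of these cells in the results was not tested.

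The 3 Bcl2a1 copies are so alike that their counts are estimates from shared reads. They lie on chromosome 9 (GRCm38, GENCODE M21): Bcl2a1a at chr9:88956900-88962419 on the plus strand, Bcl2a1b at chr9:89199209-89207827 on the plus strand and Bcl2a1d at chr9:88723285-88731914 on the minus strand. Each has 1 annotated transcript, of 819, 817 and 863 bases in that order, and a coding sequence of 519 bases. The coding sequences are 97.9% identical between Bcl2a1a and Bcl2a1b (11 differences), 98.7% between Bcl2a1a and Bcl2a1d (7) and 98.8% between Bcl2a1b and Bcl2a1d (6), with 12 variable positions in all. The first 75 coding bases, as long as 1 read, hold 6 of these positions, shown in capitals, and are printed 5′ to 3′ because a read over these bases names its copy (sequences from GENCODE M21 transcripts).
Bcl2a1a: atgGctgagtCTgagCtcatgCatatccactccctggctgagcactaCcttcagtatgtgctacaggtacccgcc
Bcl2a1b: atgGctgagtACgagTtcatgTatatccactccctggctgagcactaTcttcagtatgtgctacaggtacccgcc
Bcl2a1d: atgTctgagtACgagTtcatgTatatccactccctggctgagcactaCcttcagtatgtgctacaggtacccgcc
Counted from 1 at the start codon and relative to Bcl2a1a, Bcl2a1b carries C11A, T12C, C16T, C22T and C48T, and Bcl2a1d carries G4T, C11A, T12C, C16T and C22T. By contrast, coding positions 95 to 311 are the same in all 3 copies, a stretch of 217 bases in which no read names its copy.
All 3 copies: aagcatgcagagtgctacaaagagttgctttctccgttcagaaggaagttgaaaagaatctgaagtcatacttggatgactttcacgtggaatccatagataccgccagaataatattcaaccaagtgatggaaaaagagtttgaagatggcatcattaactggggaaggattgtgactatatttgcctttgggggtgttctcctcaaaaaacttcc
Of the windows of 75 bases along each transcript, 46.2% of those of Bcl2a1a, 56.5% of those of Bcl2a1b and 32.4% of those of Bcl2a1d occur in no other of the 3 copies. The sum of the 3 rows is therefore given beside the single rows, since moving reads between copies leaves it unchanged.

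The copies are also alike upstream of their starts, which is shown as a description. In RefSeq's promoter windows (GRCm38.p6, 250 bases before to 50 after the start) each copy has 1 match to TGANTCA, a motif bound by AP-1 factors, in which N is any base, searched on both strands. Windows of 100 bases around the match, which is in capitals, read 5′ to 3′ along the gene's strand as follows.
Bcl2a1a (chr9:88956750-88956849, plus strand): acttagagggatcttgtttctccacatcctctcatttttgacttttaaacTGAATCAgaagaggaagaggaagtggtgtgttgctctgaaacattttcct
Bcl2a1b (chr9:89199059-89199158, plus strand): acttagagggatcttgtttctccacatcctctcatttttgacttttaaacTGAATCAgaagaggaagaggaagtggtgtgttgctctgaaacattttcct
Bcl2a1d (chr9:88731915-88732014, minus strand): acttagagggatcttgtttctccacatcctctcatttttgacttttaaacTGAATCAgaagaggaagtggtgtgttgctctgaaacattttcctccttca
The windows of Bcl2a1a and Bcl2a1b are the same over all 100 bases, and that of Bcl2a1d aligns with them at 94 bases without a mismatch. Of 32851 RefSeq promoter windows, 7.8% hold TGANTCA. The NF-kB consensus was found in 8.5% of the windows and in none of the Bcl2a1 copies. Among the members other than Pmaip1, it was found in 1 window of Bcl2l1 and 1 of Bbc3. The promoter of Pmaip1 is not reported here. These matches describe letters in a window and say nothing about binding.

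In untreated cells the A1 genes and Mcl1 were the most abundant of the 10 and Bcl2 the least abundant, per length of transcript. Per kilobase of the longest protein-coding transcript, the level was 442 ± 25.4 CPM for Bcl2a1b (SD, n = 3 here and below), 245 ± 19.4 for Bcl2a1d, 174 ± 10.6 for Mcl1 and 149 ± 3.34 for Bcl2a1a. The effector Bax followed at 82.3 ± 9.79 CPM per kilobase, then Pmaip1 at 42.8 ± 0.779 and Bcl2l1 at 30.6 ± 2.95. Lowest were Bcl2l11 at 18.2 ± 0.468, Bbc3 at 4.82 ± 2.49 and Bcl2 at 2.80 ± 0.032 CPM per kilobase. Which transcripts of a gene were present was not measured, so this order depends on the length used.

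FcMR moved members of the family in both directions, and the direction did not follow the split into survival and death genes. Against isotype at 4 h, edgeR's quasi-likelihood test called 7 of the 10 members at a Benjamini-Hochberg adjusted p under 0.05, 5 higher and 2 lower. Of all 13468 genes tested, 17.7% were called in that comparison, 8.62% higher and 9.13% lower. The ranges of both arms did not overlap for 7 members and for 29.7% of all genes. At 12 h, 4 members were called, 3 higher and 1 lower, against 16.1% of all genes (8.61% higher, 7.49% lower), and 4 did not overlap, against 35.4%. At 24 h, 7 were called, 5 higher and 2 lower, against 20.9% of all genes (11.4% higher, 9.44% lower), and 8 did not overlap, against 34.4%. The median log2 fold change of the 10 was 0.40, −0.01 and 0.08 at the 3 times, beside −0.07, −0.02 and 0.01 over all genes. The 3 Bcl2a1 copies were higher at every time and Bcl2 was lower at every time. The rest were called at 1 or 2 of the times, with Bcl2l1 called in opposite directions at 4 and 24 h, or at none. The Bcl2a1 copies share reads and are not independent members: with their rows summed to 1, the calls were 5, 2 and 5 of 8. At 4 h, 4 of the 10 were called when only the 6 libraries compared were fitted. The split over all genes at 4 h, 1161 higher and 1229 lower, was 1412 and 839 with RLE factors, 1522 and 829 with DESeq2 and 1243 and 608 with the authors' scaling, and no called member turned its sign under these.

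**Figure D1:**
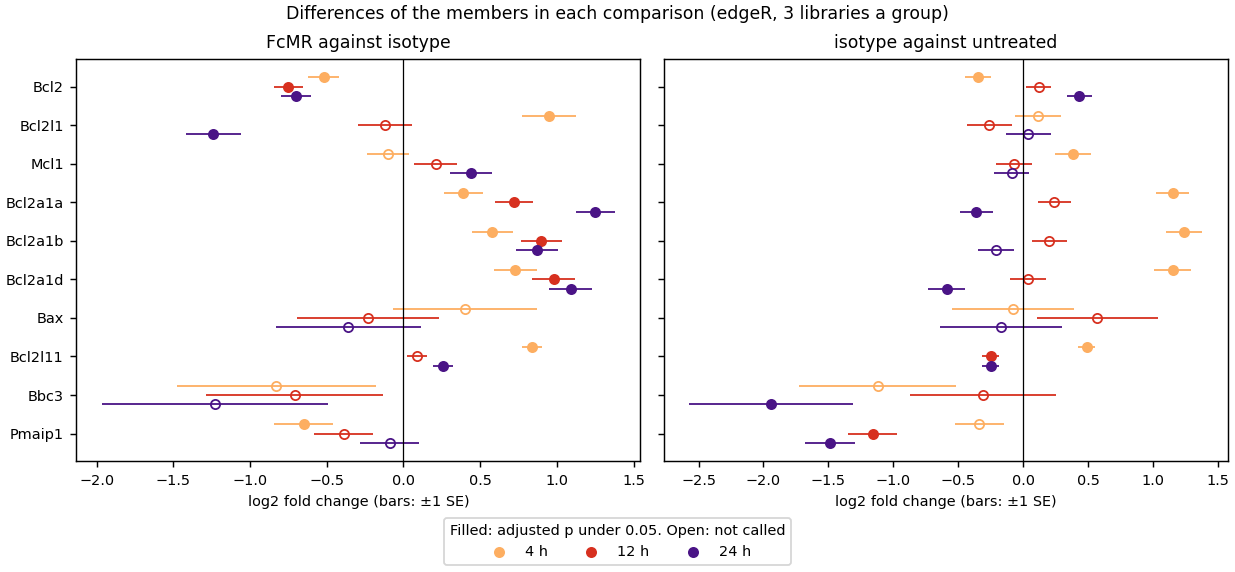
The log2 fold change of each member (points, with bars of 1 SE from the edgeR fit) is plotted for FcMR against isotype (left) and isotype against untreated (right) at 4, 12 and 24 h, with filled points for an adjusted p under 0.05. On the left, Bcl2 lies between −0.75 and −0.52, the Bcl2a1 copies lie between 0.39 and 1.25, and Bcl2l1 passes from 0.95 at 4 h to −1.24 at 24 h.

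**Figure D2:**
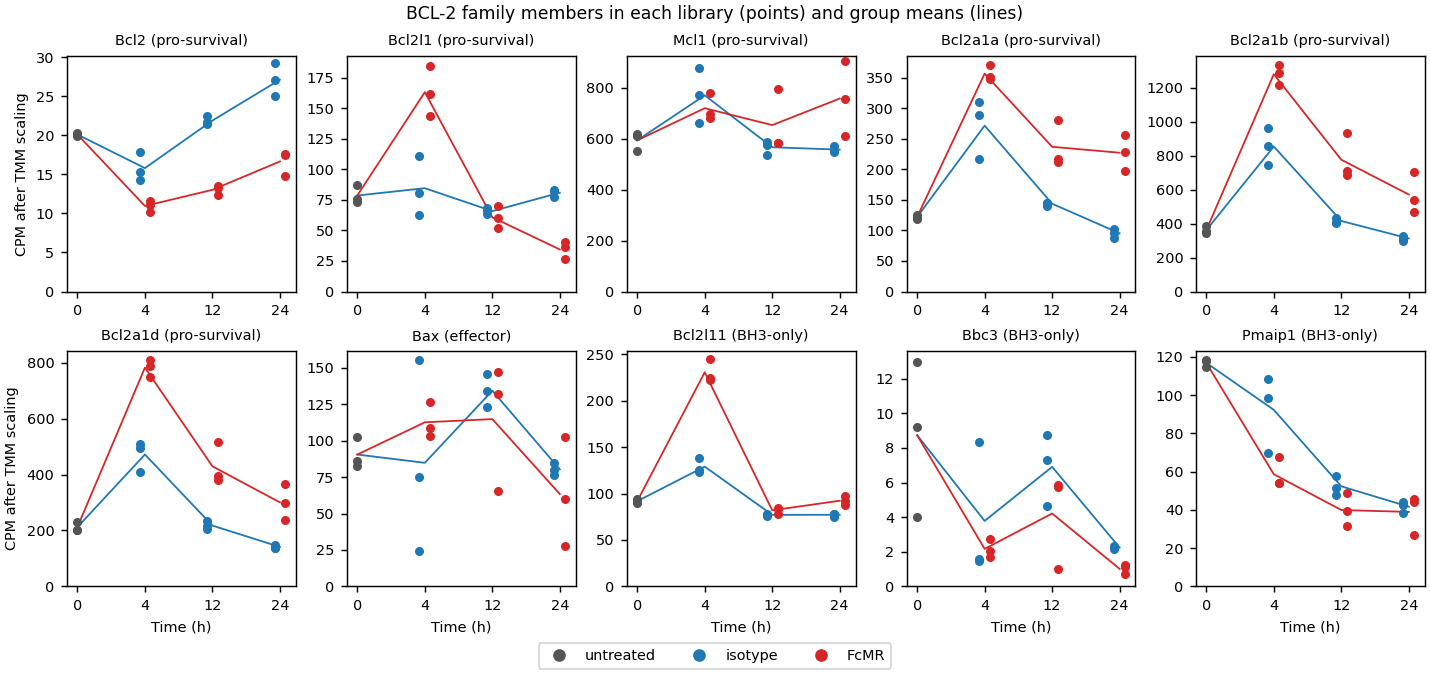
Each panel shows 1 member in CPM after TMM scaling (linear axis from 0) against time (0, 4, 12 and 24 h, evenly spaced), with a point per library and lines through the group means. The untreated points at 0 h start both lines. Bcl2a1b reaches 1217 to 1333 CPM with FcMR at 4 h, while the 3 isotype 4 h libraries of Bax lie between 24.0 and 155 CPM.

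The A1 genes, whose proteins bind and hold pro-death relatives, were higher with FcMR than with isotype at all 3 times. The summed Bcl2a1 level was 678, 739 and 668 CPM in the untreated libraries (in the order of the replicates, as in all lists below). The sum at 4 h was 2313, 2513 and 2423 CPM with FcMR and 1650.0, 1767 and 1371 CPM with isotype. The sum at 12 h was 1725, 1321 and 1277 CPM with FcMR and 748, 809 and 771 CPM with isotype. At each of these times every FcMR library was above every isotype library. The sum at 24 h was 1067, 1327 and 900.0 CPM with FcMR and 547, 537 and 561 CPM with isotype, again without overlap. The log2 fold change of the sum against isotype was 0.60 (SE 0.130, edgeR adjusted p = 0.00339) at 4 h, 0.89 (SE 0.131, adjusted p = 8.68e-05) at 12 h and 1.0 (SE 0.131, adjusted p = 1.9e-05) at 24 h. That is 1.51-fold, 1.86-fold and 2.0-fold. The neutrophil and granulocyte precursor markers summed to 1005 to 1192 CPM with FcMR and 1029 to 1366 CPM with isotype at 4 h, to 357 to 573 CPM and 315 to 405 CPM at 12 h, and to 225 to 247 CPM and 203 to 238 CPM at 24 h. Their part in the difference was not tested.

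Bcl2a1b held the largest share of the summed counts in every group. It was at 357, 383 and 342 CPM in untreated libraries and reached 1217, 1333 and 1283 CPM with FcMR and 853, 961 and 745 CPM with isotype at 4 h. Bcl2a1b at 12 h was at 929.6, 709.5 and 686 CPM with FcMR and 404, 432 and 409 CPM with isotype. Bcl2a1b at 24 h was at 541, 704 and 467 CPM with FcMR and 298, 310.5 and 329 CPM with isotype. The FcMR libraries were above the isotype libraries at all 3 times, with log2 fold changes of 0.58 (SE 0.135, edgeR adjusted p = 0.00544), 0.90 (SE 0.136, adjusted p = 0.000114) and 0.87 (SE 0.136, adjusted p = 0.000124). An annotated gene, Gm29094, shares exon bases with Bcl2a1b. Whether the counting used strand is not given in the sources used here, so reads that lie within the shared bases cannot be told apart.

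Bcl2a1d followed the same course at a lower level. It was at 201, 231 and 203 CPM in untreated libraries, and at 4 h at 749, 809 and 789 CPM with FcMR and 508, 497 and 409.9 CPM with isotype. Bcl2a1d at 12 h was at 515, 394 and 379 CPM with FcMR and 204, 232 and 216 CPM with isotype. Bcl2a1d at 24 h was at 299, 367 and 236 CPM with FcMR and 148, 138 and 136 CPM with isotype. The groups did not overlap at any of the 3 times, and the log2 fold changes were 0.73 (SE 0.139, edgeR adjusted p = 0.00121), 0.98 (SE 0.140, adjusted p = 6.54e-05) and 1.09 (SE 0.141, adjusted p = 1.58e-05).

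Bcl2a1a, the least abundant copy, was at 119, 125 and 122 CPM in untreated libraries. Bcl2a1a at 4 h was at 347, 371 and 351 CPM with FcMR and 288, 309.6 and 216 CPM with isotype. Bcl2a1a at 12 h was at 281, 218 and 212 CPM with FcMR and 140.5, 145 and 146 CPM with isotype. Its FcMR libraries were above its isotype libraries at both times. Bcl2a1a at 24 h was at 227, 256 and 197 CPM with FcMR and 102, 88.0 and 96.1 CPM with isotype, the widest separation of the 3 times. The log2 fold change was 0.39 (SE 0.126, edgeR adjusted p = 0.0374) at 4 h, 0.72 (SE 0.126, adjusted p = 0.000497) at 12 h and 1.25 (SE 0.128, adjusted p = 1.07e-06) at 24 h. The difference at 4 h lost its call without FcMR 4 h replicate 1 (0.42), 2 (0.37) or 3 (0.46), without isotype 4 h replicate 1 (0.45) or 3 (0.25), and in a fit of the compared libraries alone (0.39). Without both libraries out of title order it was 0.25 (adjusted p = 0.0522). In a joint test of the 3 times 3 members were called (Bcl2l1, Bcl2a1a and Bcl2l11), against 11% of all genes. The FcMR effect on Bcl2a1a differed by 0.86 from 4 to 24 h (edgeR adjusted p = 0.011), but the call was lost without FcMR 4 h replicate 3 (0.77) or isotype 24 h replicate 2 (0.80). For Bcl2a1b, Bcl2a1d and the sum, the same test gave 0.29, 0.36 and 0.40 with adjusted p of 0.466, 0.445 and 0.306.

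The copies kept the same order by share of the summed counts in every group, while the shares themselves moved. Bcl2a1b took a group mean of 51.9% to 56.9% of the sum, Bcl2a1d 25.7% to 32.4% and Bcl2a1a 14.7% to 20.9%. The share of Bcl2a1a was 15%, 14.8% and 14.5% with FcMR at 4 h against 17.5%, 17.5% and 15.8% with isotype. At 12 h it was 16.3%, 16.5% and 16.6% with FcMR against 18.8%, 17.9% and 18.9% with isotype. At 24 h it was 21.3%, 19.3% and 21.9% with FcMR against 18.6%, 16.4% and 17.1% with isotype. So Bcl2a1a lay below isotype in its share at 4 and 12 h and above it at 24 h, in every library, although shares rest on the estimated division of shared reads.

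**Figure D3:**
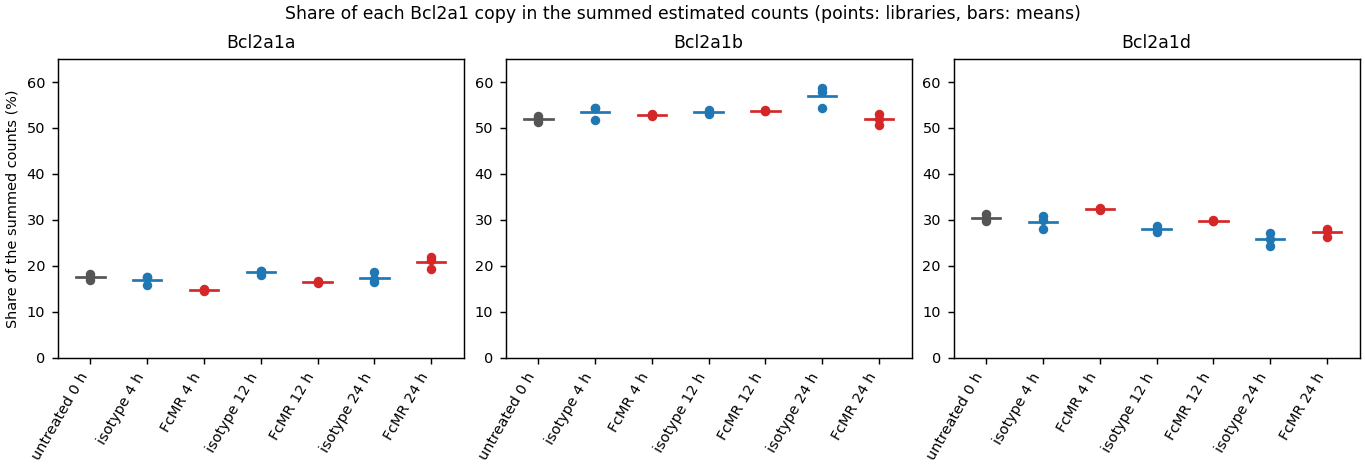
The share of each Bcl2a1 copy in the summed estimated counts (percent, axes from 0) is plotted per library, with bars at the group means, for the 7 groups. Bcl2a1b has group means of 51.9% to 56.9%, and Bcl2a1a has its highest mean, 20.9%, with FcMR at 24 h.

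In the isotype arm the A1 genes rose early. Untreated cells were sampled at 0 h only, so the isotype protein and the time in culture cannot be told apart in comparisons with them. Against untreated cells at 4 h, Bcl2a1a, Bcl2a1b and Bcl2a1d were higher by 1.15 (SE 0.128), 1.24 (SE 0.137) and 1.15 (SE 0.141) on the log2 scale, with edgeR adjusted p of 1.27e-06, 1.21e-06 and 4.08e-06. At 12 h none of them was called, with log2 fold changes of 0.24, 0.20 and 0.04, although Bcl2a1a was called after GC correction (0.24), in a fit of the compared libraries alone (0.22) and without both libraries out of title order (0.26), and Bcl2a1b after GC correction (0.21). At 24 h Bcl2a1d fell by 0.59 (SE 0.140, adjusted p = 0.00244), Bcl2a1a was lower by a log2 fold change of −0.36 (adjusted p = 0.0315), and Bcl2a1b was at −0.21 (adjusted p = 0.231; −0.29 and called after GC correction). Leaving out any 1 of the 6 libraries ended the call on Bcl2a1a (−0.37 to −0.27). RLE factors, no filter, DESeq2 and the authors' scaling ended it too (−0.33 to −0.32). Ordered by mean level, the summed copies ran from FcMR 4 h (2416 CPM) over isotype 4 h (1596), FcMR 12 h (1441), FcMR 24 h (1098), isotype 12 h (776) and untreated (695) to isotype 24 h (549 CPM). The ranges of isotype 4 h and FcMR 12 h overlapped, as did those of FcMR 12 h and FcMR 24 h.

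Bcl2l1, which encodes the pro-survival protein BCL-XL, was the member whose FcMR effect reversed. It lies at chr2:152780668-152831728 on the minus strand (GRCm38). It was at 87.2, 75.4 and 73.1 CPM in untreated libraries. Bcl2l1 at 4 h was at 161, 185 and 143 CPM with FcMR and 80.6, 62.3 and 111 CPM with isotype. All FcMR libraries were above all isotype libraries, a log2 fold change of 0.95 (SE 0.177, 1.93-fold, edgeR adjusted p = 0.00105). Bcl2l1 at 12 h was at 52.0, 69.8 and 60.3 CPM with FcMR and 66.3, 68.0 and 63.2 CPM with isotype. These ranges overlapped, with a log2 fold change of −0.12 (SE 0.176, adjusted p = 0.767). Bcl2l1 at 24 h was at 36.3, 26.4 and 40.5 CPM with FcMR and 83.2, 77.2 and 82.2 CPM with isotype. Now all FcMR libraries were below all isotype libraries, and Bcl2l1 was lower with FcMR by 1.24 (SE 0.181, 2.36-fold lower, adjusted p = 5.99e-05).

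The FcMR effect on Bcl2l1 changed between the times by −2.19 on the log2 scale from 4 to 24 h (joint edgeR test, adjusted p = 6.98e-05). Isotype-treated cells did not differ from untreated cells in Bcl2l1 by a called amount at any time: the log2 fold changes were 0.11, −0.26 and 0.04 at 4, 12 and 24 h, with edgeR adjusted p of 0.662, 0.266 and 0.873. It was called after GC correction at 4 h (0.30) and 12 h (−0.37), with the authors' scaling at 12 h (−0.41) and 24 h (0.33), and in a fit of the compared libraries alone at 12 h (−0.27). Without isotype 4 h replicate 3 the first of these was −0.13. In order of mean level, FcMR 4 h (163 CPM) stood above isotype 4 h (84.5), isotype 24 h (80.9) and untreated cells (78.6), whose neighbours overlapped in this order. Isotype 12 h (65.8) and FcMR 12 h (60.7) overlapped below them, and FcMR 24 h (34.4 CPM) was lowest and overlapped no other group next to it. The calls on Bcl2l1 at 4 and 24 h were kept under every alternative run, with log2 fold changes of 0.81 to 1.19 and of −1.37 to −1.07.

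Bcl2, the founding pro-survival member (chr1:106538178-106714274, minus strand), was lower with FcMR at every time. It was at 19.9, 20.4 and 20.1 CPM in untreated libraries. Bcl2 at 4 h was at 11.5, 11.1 and 10.2 CPM with FcMR and 15.3, 17.8 and 14.2 CPM with isotype. Bcl2 at 12 h was at 13.5, 13.2 and 12.3 CPM with FcMR and 21.5, 22.4 and 21.7 CPM with isotype. The arms did not overlap at either time. Bcl2 at 24 h was at 14.8, 17.6 and 17.5 CPM with FcMR and 29.2, 27.1 and 25.1 CPM with isotype, also without overlap. Bcl2 was lower with FcMR than with isotype by 0.52 (SE 0.102, edgeR adjusted p = 0.00162) at 4 h, by 0.75 (SE 0.097, adjusted p = 2.47e-05) at 12 h and by 0.70 (SE 0.097, adjusted p = 3.59e-05) at 24 h. The call at 4 h was lost when only the 6 libraries compared were fitted (−0.53). The joint test did not call a change of this effect over time (−0.18 from 4 to 24 h, adjusted p = 0.513).

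In the isotype arm Bcl2 first fell below the untreated level and then rose above it. Against untreated cells it was lower at 4 h (log2 fold change −0.35, SE 0.10, edgeR adjusted p = 0.0101), not called at 12 h (0.12, adjusted p = 0.341) and higher at 24 h (0.43, SE 0.096, adjusted p = 0.00146). Without isotype 4 h replicate 3 the difference at 4 h was −0.28 and no longer called, it was lost in a fit of those groups alone (−0.35), and after GC correction it was −0.61. Ordered by mean level, isotype 24 h (27.1 CPM), isotype 12 h (21.9), untreated (20.1), FcMR 24 h (16.6), isotype 4 h (15.8), FcMR 12 h (13) and FcMR 4 h (10.9) followed each other, and of these neighbours only FcMR 24 h and isotype 4 h overlapped. Over the 21 libraries Bcl2 ran opposite to the A1 genes, with a Pearson r of log2 CPM of −0.92 with Bcl2a1d, −0.90 with Bcl2a1b and −0.89 with Bcl2a1a. These values are descriptions over libraries that share 7 groups. D630008O14Rik shares exon bases with Bcl2, and reads that lie within the shared bases cannot be told apart here.

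Mcl1, which encodes a short-lived pro-survival protein (chr3:95658788-95663176, plus strand), was abundant throughout, and its groups lay close together. It was at 552, 618 and 611 CPM in untreated libraries. Mcl1 at 4 h was at 779, 682 and 697 CPM with FcMR and 772, 878 and 660.4 CPM with isotype. Mcl1 at 12 h was at 794, 584 and 581 CPM with FcMR and 576, 537 and 586 CPM with isotype. The arms overlapped at both times, with log2 fold changes of −0.10 (SE 0.138, edgeR adjusted p = 0.703) and 0.21 (SE 0.138, adjusted p = 0.399). Mcl1 at 24 h was at 757, 906 and 609.8 CPM with FcMR and 569.5, 555 and 546 CPM with isotype. Here every FcMR library was above every isotype library, a log2 fold change of 0.44 (SE 0.138, adjusted p = 0.0285).

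The call on Mcl1 at 24 h was lost without FcMR 24 h replicate 1 (0.45) or 2 (0.30), without isotype 24 h replicate 1 (0.47), 2 (0.45) or 3 (0.44), after GC correction (0.60) and in a fit of the compared libraries alone (0.44). Mcl1 has a GC content of 54.9%, on which its GC-corrected values rest. For Mcl1 the libraries had the reverse order of their tilts in 4 of the 7 groups and the same order in none. At 4 h the sign of its small difference turned with the authors' scaling (0.12), with no filter (0.02) and without isotype 4 h replicate 2 (0.04), none of them called. The joint test called no change over time (0.54 from 4 to 24 h, adjusted p = 0.179), but did without both libraries out of title order (0.65). Against untreated cells, isotype-treated cells had a log2 fold change of 0.38 at 4 h (SE 0.138, edgeR adjusted p = 0.0427), −0.07 at 12 h and −0.09 at 24 h. The call at 4 h was lost under RLE factors, no filter, DESeq2, the authors' scaling and a fit of those groups alone (0.27 to 0.38). It was also lost without untreated replicate 1 (0.32), 2 (0.40) or 3 (0.40) and without isotype 4 h replicate 1 (0.37) or 2 (0.24), while after GC correction it was 0.74. All neighbours in the order of group means, from isotype 4 h (770.0 CPM) to isotype 24 h (557 CPM), overlapped.

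Among the effectors, Bax (chr7:45461697-45466898, minus strand) showed no called difference, and its libraries lay far apart in isotype 4 h, FcMR 12 h and FcMR 24 h but close together in isotype 24 h. It was at 103, 82.5 and 86.2 CPM in untreated libraries. Bax at 4 h was at 108, 126 and 103 CPM with FcMR and 75.3, 24.0 and 155 CPM with isotype. Bax at 12 h was at 65.4, 132 and 147 CPM with FcMR and 134, 123 and 146 CPM with isotype. The FcMR values at 4 h lay within the isotype range, and at 12 h the isotype values lay within the FcMR range. Bax at 24 h was at 59.9, 27.7 and 102 CPM with FcMR and 76.3, 85.0 and 79.6 CPM with isotype. The log2 fold changes against isotype were 0.40 (SE 0.470), −0.23 (SE 0.464) and −0.36 (SE 0.473), with edgeR adjusted p of 0.630, 0.838 and 0.677.

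The spread of Bax ran with the GC tilt of the libraries. Its annotated transcripts have a GC content of 58.4%, and in 6 of the 7 groups its 3 libraries had the order of their tilts. The isotype 4 h libraries at 75.3, 24.0 and 155 CPM had tilts of −0.83, −1.59 and 0.64, and the FcMR 24 h libraries at 59.9, 27.7 and 102 CPM had tilts of −0.35, −1.26 and 0.41. Its part in the values was not tested beyond the GC-corrected fit, in which the differences were 0.50, −0.01 and −0.28 with none called. Without both libraries that stand out of title order, Bax was called higher with FcMR at 4 h (1.18, adjusted p = 0.0433), and at 12 h the difference was 0.05. Without FcMR 24 h replicate 2 the difference at 24 h was 0.02. Against untreated cells the isotype libraries differed in Bax by −0.08, 0.57 and −0.17 on the log2 scale, none called, though at 12 h it was called in a fit of the compared libraries alone (0.56). Neighbours in the order of group means, from isotype 12 h (134 CPM) to FcMR 24 h (63.3 CPM), overlapped except FcMR 4 h and untreated. Gm45808 shares exon bases with Bax. The order of the tilts was also seen in 3 of the 7 groups for Bcl2l1 and Bbc3. The reverse order was seen in 5 groups for Bcl2a1a, in 4 for Mcl1 and Pmaip1, and in 3 for Bcl2, Bcl2a1b and Bcl2a1d.

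**Figure D4:**
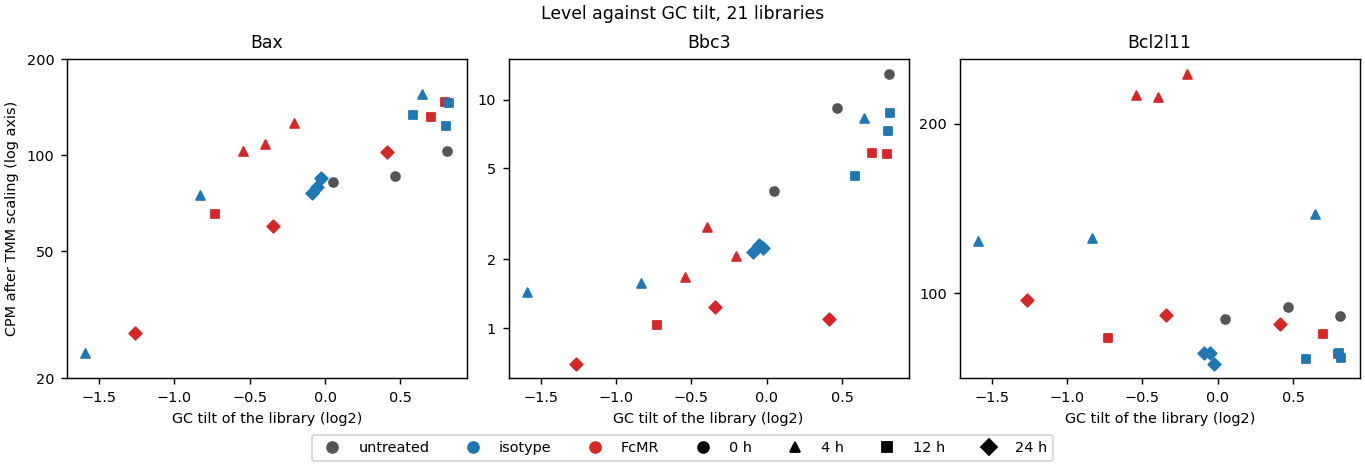
The level of Bax, Bbc3 and Bcl2l11 (CPM after TMM scaling, log axis) is plotted against the GC tilt of each of the 21 libraries (log2 units), with colours for treatment and marker shapes for time. Bax climbs from 24.0 CPM at a tilt of −1.59 to between 103 and 147 CPM at tilts near 0.80, while Bcl2l11 separates by group, with FcMR 4 h at 223 to 245 CPM.

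Of the BH3-only genes, Bcl2l11, which encodes BIM (chr2:128126038-128162547, plus strand), was higher with FcMR at 4 h and, by less, at 24 h. It was at 91.2, 89.8 and 94.4 CPM in untreated libraries. Bcl2l11 at 4 h was at 223, 245 and 224 CPM with FcMR and 126, 124 and 138 CPM with isotype. The lowest FcMR library was well above the highest isotype library, and the log2 fold change was 0.84 (SE 0.066, 1.79-fold, edgeR adjusted p = 1.43e-07). Bcl2l11 at 12 h was at 83.3, 84.8 and 77.8 CPM with FcMR and 76.3, 78.2 and 76.7 CPM with isotype. The ranges overlapped, with a log2 fold change of 0.09 (SE 0.066, adjusted p = 0.456). Bcl2l11 at 24 h was at 91.6, 97.2 and 88.1 CPM with FcMR and 78.3, 74.9 and 78.4 CPM with isotype. These did not overlap, and the log2 fold change was 0.26 (SE 0.066, adjusted p = 0.00852). That call was lost with no filter (0.27), with the authors' scaling (0.28) and in a fit of the compared libraries alone (0.25).

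The FcMR effect on Bcl2l11 differed between the times, by −0.58 from 4 to 24 h (joint edgeR test, adjusted p = 8.88e-05). Isotype-treated cells had more Bcl2l11 than untreated cells at 4 h, by 0.49 on the log2 scale (SE 0.066, edgeR adjusted p = 1.27e-05). They had less at 12 h (−0.25, SE 0.066, adjusted p = 0.00498) and at 24 h (−0.25, SE 0.066, adjusted p = 0.00534). The call at 12 h was lost with the authors' scaling (−0.25), and that at 24 h with no filter (−0.22) and without isotype 24 h replicate 2 (−0.19). In order of mean level, FcMR 4 h (231 CPM) and isotype 4 h (129 CPM) overlapped no neighbour. FcMR 24 h (92.3) overlapped untreated cells (91.8), and FcMR 12 h (82.0), isotype 24 h (77.2) and isotype 12 h (77.1 CPM) overlapped in turn.

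Pmaip1, which encodes NOXA, was lower with FcMR at 4 h and fell in the isotype arm at 12 and 24 h. It was at 118.5, 118 and 114 CPM in untreated libraries. Pmaip1 at 4 h was at 67.7, 53.9 and 54.1 CPM with FcMR and 98.4, 109 and 69.8 CPM with isotype. The arms did not overlap, and the log2 fold change was −0.65 (SE 0.191, edgeR adjusted p = 0.0239). Pmaip1 at 12 h was at 48.7, 39.5 and 31.5 CPM with FcMR and 57.7, 51.6 and 47.6 CPM with isotype. Pmaip1 at 24 h was at 43.8, 45.8 and 27.0 CPM with FcMR and 42.4, 43.9 and 38.6 CPM with isotype. At both later times the arms overlapped, with log2 fold changes of −0.39 (SE 0.190, adjusted p = 0.201) and −0.09 (SE 0.192, adjusted p = 0.812). The call at 4 h was lost under RLE factors (−0.59), no filter (−0.53), the authors' scaling (−0.58) and a fit of the compared libraries alone (−0.66), and without FcMR 4 h replicate 2 (−0.59) or 3 (−0.55) or isotype 4 h replicate 1 (−0.59) or 2 (−0.48). At 12 h the difference was called after GC correction (−0.53) and without both libraries out of title order (−0.56), and at 24 h it was called with GC correction and replicate block together (−0.23) and turned to 0.11 without FcMR 24 h replicate 3.

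Against untreated cells, Pmaip1 in isotype-treated cells was at −0.34 on the log2 scale at 4 h (SE 0.188, edgeR adjusted p = 0.171), with no overlap of the ranges. It fell by 1.16 (SE 0.190, 2.24-fold lower, adjusted p = 8.39e-05) at 12 h and by 1.49 (SE 0.193, 2.81-fold lower, adjusted p = 6.74e-06) at 24 h. These later calls were kept under every alternative run, while the difference at 4 h was called with the replicate number as a block (−0.37) and after GC correction (−0.71). It was −0.51 to −0.17 with 1 library left out and −0.17 without both libraries out of title order. The untreated mean of 117 CPM and the isotype 4 h mean of 92.2 CPM stood apart from their neighbours. FcMR 4 h (58.6) overlapped isotype 12 h (52.3), and isotype 24 h (41.6), FcMR 12 h (39.9) and FcMR 24 h (38.9 CPM) overlapped in turn. Over the same time the summed neutrophil and granulocyte precursor markers fell, to 1029 to 1366 CPM with isotype at 4 h, 315 to 405 CPM at 12 h and 203 to 238 CPM at 24 h. Their part in the fall of Pmaip1 was not tested.

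Bbc3, which encodes PUMA (chr7:16308393-16318205, plus strand), was scarce, with 8 to 579 counts per library, and is rich in GC (68.6%). It was at 13, 4.0 and 9.22 CPM in untreated libraries. Bbc3 at 4 h was at 2.76, 2.07 and 1.67 CPM with FcMR and 1.58, 1.44 and 8.33 CPM with isotype. Bbc3 at 12 h was at 1.03, 5.84 and 5.77 CPM with FcMR and 4.65, 7.32 and 8.76 CPM with isotype. The arms overlapped at both times, and the single high isotype library at 4 h, replicate 3, was the one with a tilt of 0.64. Bbc3 at 24 h was at 1.23, 0.697 and 1.10 CPM with FcMR and 2.15, 2.25 and 2.31 CPM with isotype. These did not overlap, yet none of the 3 differences was called: −0.83 (SE 0.648), −0.71 (SE 0.575) and −1.23 (SE 0.735), with edgeR adjusted p of 0.433, 0.507 and 0.284.

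Without isotype 4 h replicate 3 the Bbc3 difference at 4 h was 0.55, not called. After GC correction the differences at 12 h (−0.43) and 24 h (−0.88) were called, and that at 24 h was also called in a fit of the compared libraries alone (−1.22). Against untreated cells, the isotype libraries were at −1.12 (adjusted p = 0.163), −0.31 (adjusted p = 0.700) and −1.94 (SE 0.631, adjusted p = 0.0192) at 4, 12 and 24 h by edgeR. The size of the last followed the GC correction, with which it was −0.47 and still called. It lost its call without untreated replicate 1 (−1.54) or isotype 24 h replicate 1 (−1.88), 2 (−1.91) or 3 (−1.92). At 4 h it was called after GC correction (−0.62) and without isotype 4 h replicate 3 (−2.50) or both libraries out of title order (−2.49), and at 12 h after GC correction (−0.61), where without untreated replicate 1 it was 0.09. In the order of group means from untreated (8.74 CPM) to FcMR 24 h (1.01 CPM), all neighbours overlapped except FcMR 4 h and FcMR 24 h.

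Counted by row, members called between isotype-treated and untreated cells were mostly higher at 4 h and mostly lower at 24 h. These rows are not all independent, since the Bcl2a1 copies share reads. Against untreated cells 6 of the 10 members were called at 4 h, 5 higher and 1 lower, against 35.6% of all genes (20.4% higher, 15.2% lower). At 12 h 2 were called, both lower, against 41.6% of all genes (22% higher, 19.6% lower). At 24 h 6 were called, 1 higher and 5 lower, against 42.3% (21.3% higher, 21% lower). At each of these times 7 members had ranges that did not overlap, against 42.4%, 61.8% and 62.7% of all genes. The medians of the 10 log2 fold changes were 0.24, −0.02 and −0.23, beside medians over all genes of 0, 0.03 and −0.04. These 3 comparisons share the untreated libraries, and each shares its isotype libraries with an FcMR comparison. The calls include Bcl2a1a, Bcl2a1b and Bcl2a1d at 4 h, and Bcl2a1a and Bcl2a1d at 24 h. Summed to 1 row, the copies were called higher at 4 h and lower at 24 h (edgeR adjusted p of 1.15e-06 and 0.0435). The calls on Mcl1 at 4 h and Bcl2a1a at 24 h were lost in several alternatives, as given above. Without isotype 24 h replicate 2, 3 members were called at 24 h. At 12 h 5 were called in a fit of the compared libraries alone and 6 after GC correction.

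Ratios of counts within 1 library need no scaling by library total, and they are given as descriptions, since 3 libraries against 3 allow no exact p under 0.1. They were not corrected for the GC tilt, although the genes set against each other differ in GC content. This was 54.1% for Bcl2l1, 50.6% for Bcl2l11, 44.1% to 44.6% for the Bcl2a1 copies, 54.9% for Mcl1 and 41.6% for Pmaip1. The balance of Bcl2l1 to Bcl2l11, a survival gene over a death gene, was 0.956, 0.839 and 0.774 in untreated libraries. At 4 h it was 0.725, 0.753 and 0.639 with FcMR and 0.642, 0.504 and 0.800 with isotype, which overlapped while both genes were higher with FcMR. At 12 h it was 0.625, 0.823 and 0.775 with FcMR and 0.869, 0.869 and 0.823 with isotype. At 24 h it was 0.397, 0.272 and 0.460 with FcMR and 1.06, 1.03 and 1.05 with isotype, so every FcMR library lay below every isotype library, by −1.51 on the log2 scale.

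The second ratio sets 2 kinds of survival gene side by side. The summed Bcl2a1 counts were 7.77, 9.80 and 9.13 times those of Bcl2l1 in untreated libraries. At 4 h they were 14.3, 13.6 and 16.9 times with FcMR and 20.5, 28.4 and 12.4 times with isotype, which overlapped. At 12 h they were 33.2, 18.9 and 21.2 times with FcMR and 11.3, 11.9 and 12.2 times with isotype, a log2 difference of 1.01. At 24 h they were 29.4, 50.2 and 22.2 times with FcMR and 6.58, 6.96 and 6.83 times with isotype, a log2 difference of 2.24 with no overlap. The highest ratios of isotype 4 h (28.4), FcMR 12 h (33.2) and FcMR 24 h (50.2) were in the libraries of lowest tilt in these groups. Their tilts were −1.59, −0.73 and −1.26. The ratio of Bcl2l1 to Bcl2l11 was lowest of its group in the same libraries, at 0.504, 0.625 and 0.272. The part of the tilt in either ratio was not tested. The ratio of Mcl1 to Pmaip1, whose proteins bind each other, was 4.66, 5.25 and 5.34 in untreated libraries. At 4 h it was 11.5, 12.7 and 12.9 with FcMR and 7.85, 8.08 and 9.47 with isotype. At 24 h it was 17.3, 19.8 and 22.6 with FcMR and 13.4, 12.7 and 14.2 with isotype. This ratio was higher with FcMR in all libraries at 4, 12 and 24 h, by 0.55, 0.60 and 0.56 on the log2 scale, although neither gene alone was called at 12 h.

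**Figure D5:**
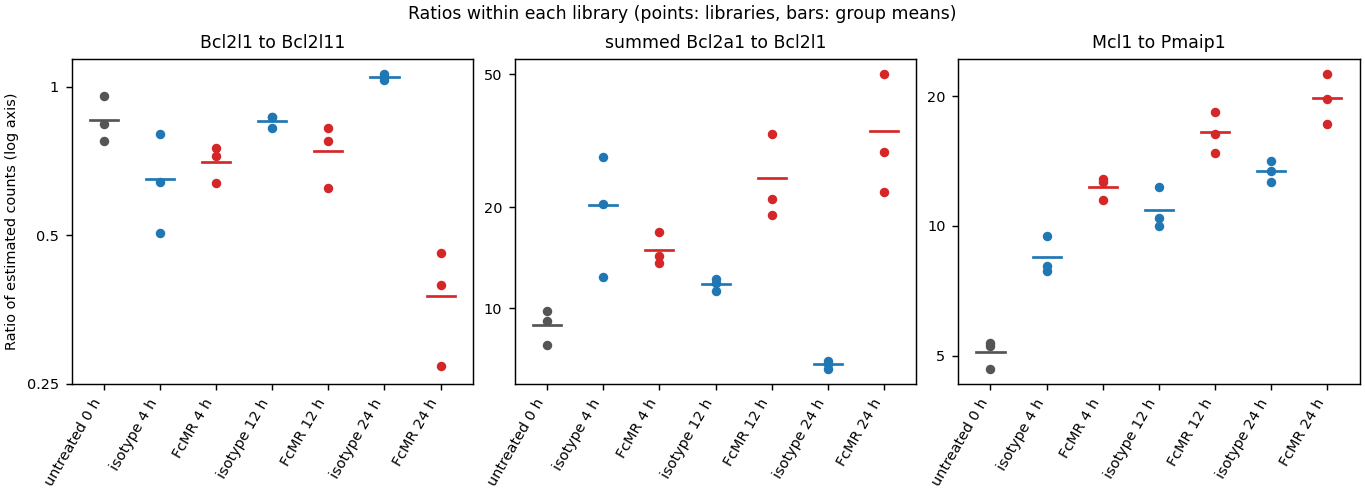
The ratio of estimated counts within each library (points, log axis, with bars at group means) is plotted for Bcl2l1 to Bcl2l11, summed Bcl2a1 to Bcl2l1, and Mcl1 to Pmaip1 in the 7 groups. With FcMR at 24 h the first ratio is at 0.272 to 0.460 where isotype is at 1.03 to 1.06, and the second is at 22.2 to 50.2 where isotype is at 6.58 to 6.96.

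Of 16 further family genes, 12 were tested. Of these, 2 were lower and none higher with FcMR at 4 h, 2 higher and 2 lower at 12 h, and 1 higher at 24 h, beside 17.7%, 16.1% and 20.9% of all genes called in either direction. Bmf, a BH3-only gene, was at 17, 15.8 and 15.6 CPM with FcMR and 27.1, 23.4 and 25.9 CPM with isotype at 4 h (log2 fold change −0.66, edgeR adjusted p = 0.000208). At 12 h Bmf was lower with FcMR than with isotype by 0.81 (edgeR adjusted p = 1.11e-05). Bid, which links death receptors to BAX, was higher with FcMR at 12 h by 0.46 (adjusted p = 0.0294). Bnip3, a mitochondrial relative induced by low oxygen, was higher with FcMR at 24 h by 1.07 (adjusted p = 3.53e-05). Its libraries were at 39.6, 49.6 and 42.1 CPM with FcMR and 22.5, 17.2 and 23.0 CPM with isotype. Bnip3l was lower with FcMR at 4 h by 0.42 (adjusted p = 0.0198). Bok was called lower at 12 h on 0 to 10 counts per FcMR library.

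Of the apoptosome, caspase and inhibitor genes, which act downstream of the mitochondria, 16 were tested. With FcMR, 2 were higher and 1 lower at 4 h, 2 higher and 1 lower at 12 h, and 2 higher at 24 h, where 17.7%, 16.1% and 20.9% of all genes were called at the 3 times. Birc3, which encodes the caspase and signalling regulator cIAP2, was higher by 0.40, 0.53 and 0.99 at the 3 times (edgeR adjusted p of 0.0285, 0.00520 and 1.06e-05). Casp9, the initiator caspase of the apoptosome, was lower with FcMR by 0.60 at 4 h and by 0.27 at 12 h (adjusted p of 0.000138 and 0.0433).

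The death receptor and necroptosis list, 10 genes tested, had 2 higher at 4 h, 3 higher and 1 lower at 12 h, and 3 higher at 24 h, beside the same 17.7%, 16.1% and 20.9% of all genes. Cflar encodes FLIP, which blocks caspase-8 at death receptors. It was at 1432, 1434 and 1499 CPM with FcMR and 806, 803 and 689.6 CPM with isotype at 4 h, and the log2 fold changes at the 3 times were 0.93, 1.30 and 1.01 (edgeR adjusted p of 7.95e-06, 1.02e-07 and 1.2e-06). Mlkl, the executor of necroptosis, was higher with FcMR than with isotype by 0.81, 0.71 and 0.43. The death receptor gene Fas was higher with FcMR by 0.67 at 12 h and 0.98 at 24 h (adjusted p = 1.35e-05 at 24 h).

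The p53 list, 13 genes tested, was called in both directions. It had 4 higher and 3 lower at 4 h, 1 higher and 4 lower at 12 h, and 1 higher and 5 lower at 24 h. Of all genes, 8.62% were higher and 9.13% lower at 4 h, 8.61% and 7.49% at 12 h, and 11.4% and 9.44% at 24 h. Its medians of −0.16, −0.21 and −0.43 stood beside −0.07, −0.02 and 0.01 over all genes. Cdkn1a, which encodes the cell cycle inhibitor p21, was at 1478, 1707 and 1490.0 CPM with FcMR and 761, 625 and 921 CPM with isotype at 4 h (log2 fold change 1.02, edgeR adjusted p = 8.16e-06). Sesn1, a stress-response gene, was lower with FcMR than with isotype by 1.36 at 4 h and by 1.10 at 24 h (adjusted p of 5.35e-06 and 7.19e-06). Trp53inp1 was lower with FcMR by 0.93 at 4 h and 0.66 at 12 h. Phlda3 was lower by 1.35 at 12 h and 1.52 at 24 h, and Perp by 1.14 at 24 h, while Plk2 was higher with FcMR by 0.62 at 12 h. In the list of genes that control turnover of the MCL-1 protein, 5 were tested and 1 was higher at each time. This was March5, a ubiquitin ligase of the outer mitochondrial membrane, with log2 fold changes of 1.06, 0.57 and 0.41.

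These lists were also called between isotype-treated and untreated cells. At 4 h, 1 higher and 4 lower were called among the other family genes, 7 higher and 2 lower among apoptosome, caspase and inhibitor genes, 4 higher and 1 lower in the death receptor list, and 2 higher and 4 lower in the p53 list. At 12 h the counts in the same order were 3 higher and 1 lower, 8 higher and 1 lower, 3 higher, and 5 lower. At 24 h they were 3 higher and 1 lower, 6 higher and 1 lower, 3 higher and 2 lower, and 4 higher and 4 lower. The MCL-1 turnover list, 5 genes tested, had 2 higher and 1 lower at each time. Of all genes, 35.6%, 41.6% and 42.3% were called in these comparisons. By direction these were 20.4%, 22% and 21.3% higher and 15.2%, 19.6% and 21% lower.

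Finally, the genes whose log2 CPM ran most like each member over the 21 libraries were ranked by Pearson r among 8799 candidates whose average log2 CPM was 3 or more. Bcl2a1b was most like Cflar (r = 0.987) and Ptgs2 (0.982), and Bcl2a1d most like Cflar (0.988) and Pvr (0.981). Bcl2a1a was most like Filip1l (0.982) and P4ha1 (0.979). Bcl2l1 was most like Csf1 (0.946), a macrophage growth factor gene, and E2f8 (0.913), and Bcl2l11 most like Arhgef3 (0.965) and Creb5 (0.961). For Bcl2 these were Arhgap25 (0.968) and Ddi2 (0.965), for Mcl1 Copb1 (0.960) and Pafah1b1 (0.954), and for Pmaip1 Arl8b (0.952) and Plpbp (0.939). Bax was most like Nacc1 (0.971) and Brms1 (0.968), and Bbc3 most like Setd1b (0.965) and Csnk1g2 (0.955), genes with a transcript GC content of 56.9% to 59.5%. Among the members, the copies Bcl2a1b and Bcl2a1d were closest (r = 0.989), then Bcl2a1a with each of them (0.970 and 0.966). The counts of these copies are estimates from shared reads. The libraries share groups and GC tilts, so these values describe the data set and carry no test.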

How the data were processed

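RNA of 21 libraries was sequenced as 75-base single-end reads, per the labels' protocols. The submitters' processing notes name CASAVA 1.8.2, kallisto 0.44.0, DESeq2 and the builds mm10 and GRCm38, without their roles. The deposited raw table holds estimated counts as whole numbers per gene. The authors' second deposited table holds a normalized signal, equal to the first divided by a factor that differs between genes, and was used only for that factor. How transcripts were summed to genes is not given in the sources used here. Symbols and positions came from GENCODE M21, which matched 23206 of 23250 IDs.

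The counts were fitted with edgeR 4.0.16 (R 4.3.3): 1 coefficient per group over 21 libraries, TMM factors, filterByExpr (minimum of 10 counts), the quasi-likelihood test and Benjamini-Hochberg adjustment over 13468 genes, called at 0.05. Levels are CPM after TMM scaling, except that log2 CPM for correlations adds a prior count of 2. The fit was tested on simulated data. The members and lists were chosen with earlier results of these data known. Named besides the 10 members were, per list and FcMR comparison, the 3 called genes of largest absolute fold change, and the 2 genes most like each member. One result is not reported here. Alternatives were RLE factors, other filters, DESeq2 1.42.0, only the groups compared, a replicate block, GC correction, the authors' scaling, summed copies, both libraries out of title order left out, and each library left out. Counting error alone sets the floor of 3 counts. Further cell types checked by markers (neutrophil, T, B, mast and NK cells, stroma) are given in the report or the closing section.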

Additional observations from a re-analysis of the deposited data

Results flagged for a closer look

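For 3 members the FcMR effect itself differed between the times in the joint edgeR test, which is what brings them here. The effect on Bcl2l1 changed by −2.19 on the log2 scale from 4 to 24 h, from 0.95 to −1.24, with all FcMR libraries above isotype at 4 h and all below at 24 h. The effect on Bcl2a1a changed by 0.86, from 0.39 to 1.25, while that on the summed Bcl2a1 copies was not called (0.40, adjusted p = 0.306). The effect on Bcl2l11 changed by −0.58, from 0.84 to 0.26.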

How the results depend on the processing

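Of the differences called for members, those of Bcl2l1 at 4 and 24 h, Bcl2l11 at 4 h, Bcl2 at 12 and 24 h, Bcl2a1b and Bcl2a1d at all 3 times and Bcl2a1a at 12 and 24 h with FcMR kept their call under every alternative run. Counts of members called that moved by over 1.5 times were 4 in place of 7 for FcMR at 4 h in a fit of only the libraries compared, 2 in place of 4 for FcMR at 12 h with the copies summed (fewer genes tested), and for isotype against untreated at 12 h 5 (only the libraries compared), 6 (GC correction) and 6 (GC correction with replicate block) in place of 2. A further such count was 3 in place of 6 for isotype against untreated at 24 h, without isotype 24 h replicate 2. Leaving out each library gave 5 to 6, 4 to 4 and 6 to 7 members for FcMR, 5 to 6, 2 to 2 and 3 to 5 for isotype against untreated, and 2 to 3 for the change over time. Signs that turned, none of them called, were as follows, with the range over libraries left out. With FcMR they were Mcl1 at 4 h (0.02 with no filter, 0.12 with the authors' scaling; −0.20 to 0.04), Bcl2l1 at 12 h (0.10 with the authors' scaling), Bbc3 at 4 h (0.56 without both libraries out of title order; −1.16 to 0.55), Bax at 12 h (0.05 without both; −0.45 to 0.05) and 24 h (−0.88 to 0.02), and Pmaip1 at 24 h (−0.22 to 0.11). Against untreated cells they were Bcl2l1 at 4 h (−0.13 without both; −0.13 to 0.25) and 24 h (−0.01 to 0.12), Bbc3 at 12 h (−0.67 to 0.09), Bax at 4 h (0.28 with GC correction, 0.25 with the block too; −0.86 to 0.32) and 24 h (0.20 and 0.20), and Mcl1 at 24 h (0.04 and 0.04). The cause was not tested. Over all genes, FcMR at 4 h called 2390, but 868 with only the libraries compared, 3779 with GC correction, 3926 with the block too and 3898 without both libraries out of title order. FcMR at 12 h called 2168 against 3316 and 3477 with GC correction, isotype against untreated at 4 h 4791 against 2881 with only the libraries compared, and the change over time 1484 against 925 (no filter), 2916, 3149 and 2616. The change over time split 840 higher and 644 lower, but 587 and 780 with RLE factors and 729 and 981 with DESeq2, and isotype against untreated at 4 h 2742 and 2049, but 1923 and 2303 with no filter. Without a filter the median of all genes moved to −0.10 for isotype against untreated at 4 h. With the replicate block, 7, 4 and 7 members were called for FcMR and 7, 2 and 6 for isotype against untreated. Same-numbered libraries do not deviate together (mean r from −0.071 to 0.106), so the numbers are not taken to pair them. Depth limits Bbc3 most, at 8 to 579 counts.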

Other observations

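The 4 B cell markers summed to at most 7.58 CPM and the detected NK cell marker to at most 1.95 CPM in any library.

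The authors' scaling carries a part of its own for some genes. In 19.2% of the 13034 genes without a 0 the factors between both deposited tables are 1 shared set, and 4 members, the Bcl2a1 copies and Pmaip1, are among them. For Bcl2l1 the part of its own ran from −0.74 to 0.30 on the log2 scale over the libraries, and for Mcl1 it averaged −0.16 in FcMR 4 h libraries and −0.02 in isotype 4 h libraries.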
